A study of Mus musculus with 6 samples.

Results

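The smooth muscle contractile genes of the mouse stomach were followed as a group of 35 genes, picked by symbol from a table of 23550 gene symbols, and all 35 were in the table. The list covers the thin filament (9 genes), myosin and the enzymes that control it (6), the proteins that anchor the filaments (13), the transcription factors Srf and Myocd, and the channels and receptors of excitation (5). RNA of the stomach had been sequenced in 6 libraries. In 3 of them the mice had been given saline by gavage (numbered 1, 2 and 4 in the labels), and in the other 3 they had been given Riclin, a bacterial exopolysaccharide, at 20 mg per kg (numbered 2, 3 and 4), for 14 days in both groups. Values per library are given in that order throughout. The saline label carries the same dose figure as the Riclin label. The labels do not state strain, sex, age or the part of the stomach taken. Nor do they say that each library is a separate animal, so a p-value here reflects library-to-library spread, which may be technical. The study also describes ethanol injury, and the labels do not say whether these animals were exposed to it.

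The outer wall of the stomach is made of layers of smooth muscle that mix and move the contents, and thinner muscle lies under the mucosa and around blood vessels. Smooth muscle contracts when calcium binds calmodulin, calmodulin switches on myosin light chain kinase (Mylk), and the phosphorylated light chains let myosin pull on actin, while a phosphatase resets them. The genes of this apparatus are switched on by serum response factor (Srf) with its partner myocardin (Myocd), through a sequence called the CArG box. In bulk tissue, fewer muscle cells and less RNA per muscle cell cannot be told apart.

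Values are FPKM, a level scaled for gene length and for library size. The whole reads behind them add up to between 30688357 and 39771521 per library. The 35 genes took 0.916, 0.996 and 0.841% of the reads in saline and 0.805, 0.872 and 0.830% in Riclin. The ranges overlap, with saline replicate 2 highest and Riclin replicate 2 lowest. The 95% Wilson interval of that highest share was 0.992 to 0.999%, and it covers counting error only. Pancreatic and antral markers varied more widely. The 28 pancreatic acinar genes in the table summed to at least 41259 FPKM in 5 libraries and to 512 in Riclin replicate 3. Gast, the gastrin gene of the antrum, measured 2.62 FPKM in Riclin replicate 4 against 389 to 1037 in the other 5. Sums of some other lists varied less than that of the 35 genes (3093 to 4216 FPKM). They were 28.7 to 31.8 FPKM for interstitial cells of Cajal and 42.4 to 49.5 for enteric neurons.

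The gene group was set beside genes of other muscle types. Myh11 and Des are themselves members of the group, so their presence is no check of its label. Smooth muscle myosin (Myh11) measured 92.7 to 109 FPKM and desmin (Des) 108 to 171 over the 6 libraries. The cardiac genes Myh6 and Actc1 stayed under 1 FPKM in every library. The fast skeletal myosins Myh1, Myh2 and Myh4 stayed at or under 0.0662 FPKM, a value of Myh2 in Riclin replicate 2. The skeletal creatine kinase Ckm was present at 5.76 to 9.34 FPKM, and the cardiac troponin Tnni3 at 56.5 to 96.7 FPKM. Other genes of skeletal and cardiac muscle were detected as well. Tnni2 measured 5.96 to 8.45 FPKM, Mylpf 1.17 to 4.30 and Myh7 1.35 to 1.94. Acta1, Tnnt3, Tnnt2 and Myl7 reached 2.51, 2.11, 1.53 and 2.54 FPKM in their highest library.

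CArG boxes near RefSeq starts of these genes are shown first, because Srf and myocardin act on the group through this sequence. In the RefSeq promoter table (build GRCm38.p6), 30 of the 35 genes had an entry, and the genes without one were Actg2, Myh11, Myocd, Nexn and Tagln. The 250 bases before each start were searched for the CArG box on both strands, which for this motif is one search because its reverse complement has the same form. A box was found in 5 of the 30 genes (16.7%), and in 439 of the 27025 genes of the whole table (1.62%). The 5 genes were the light chains Myl9 and Myl6, vinculin (Vcl), Filip1l and Srf itself, and Srf held 2 boxes in overlapping windows, of which the one nearer its start is shown. Each sequence is read 5′ to 3′ on the strand of the gene, with up to 45 bases on each side of the box, which is in capitals.
Myl9, chr2:156775258-156775357, plus strand: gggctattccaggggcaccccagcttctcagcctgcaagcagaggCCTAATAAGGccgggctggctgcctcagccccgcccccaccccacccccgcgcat
Myl6, chr10:128493010-128493104, minus strand: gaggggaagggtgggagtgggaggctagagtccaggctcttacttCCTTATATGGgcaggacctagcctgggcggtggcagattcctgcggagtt
Vcl, chr14:20929148-20929225, plus strand: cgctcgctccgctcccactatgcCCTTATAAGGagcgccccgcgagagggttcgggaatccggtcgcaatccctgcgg
Filip1l, chr16:57549135-57549234, plus strand: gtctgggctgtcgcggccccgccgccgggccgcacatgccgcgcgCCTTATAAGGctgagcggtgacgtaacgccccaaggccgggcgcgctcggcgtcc
Srf, chr17:46556170-46556269, minus strand: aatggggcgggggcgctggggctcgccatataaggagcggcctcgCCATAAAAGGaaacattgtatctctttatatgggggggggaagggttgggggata
The box begins 161 bases before the RefSeq start in Myl9, 50 in Myl6, 227 in Vcl, 62 in Filip1l and 62 in Srf. The windows of Myl6 and Filip1l lie inside the GENCODE spans of these genes (chr10:128490860-128494145 and chr16:57353093-57573126). Their RefSeq starts are therefore not the outermost annotated ones. A match describes these letters only. It shows no binding, and the absence of a match says only that the letters are not in this window.

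The comparison the groups allow is Riclin against saline. Most of the muscle genes had a slightly lower mean in Riclin, and none passed the test. Of the 35 genes, 32 passed the filter of at least 1 FPKM in at least 3 libraries, and Myocd, Kcnma1 and Cacna1c did not. By limma on log2(FPKM + 1), 0 of the 32 had a Benjamini-Hochberg adjusted p under 0.05, as had 0 of all 11738 genes tested (0.00%), and limma's voom on the recovered reads also called 0. At an unadjusted p under 0.05, 2 of the 32 were lower (background 1.83% of all genes tested) and 0 were higher (4.07%). The log2 fold change was below 0 in 26 of the 32, against 38.7% of all genes tested, and above 0 in 6. The median log2 fold change was -0.10 over the 32 genes and 0.04 over all genes tested. Over every one of the 35, with no filter, 28 lay below 0 (45.2% of all genes) and the median was -0.091, against 0.0064 over all genes. In another fit, pancreatic acinar genes were removed and the remaining FPKM values rescaled to the former FPKM sum of each library. There all 32 lay below 0, against 68.9% of all genes, while the median of all genes was -0.069. In that fit 7 of the 32 were lower at an unadjusted p under 0.05, against 6.58%. With the acinar genes kept, the count of 2 at an unadjusted p under 0.05 became 0 without saline replicate 4 or without Riclin replicate 4. The shares of all genes that were lower at that p were then 1.65 and 1.54%. Without saline replicate 2, which was highest in 14 of the 35 genes, the median of the 32 genes was -0.046.

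**Figure D1:**
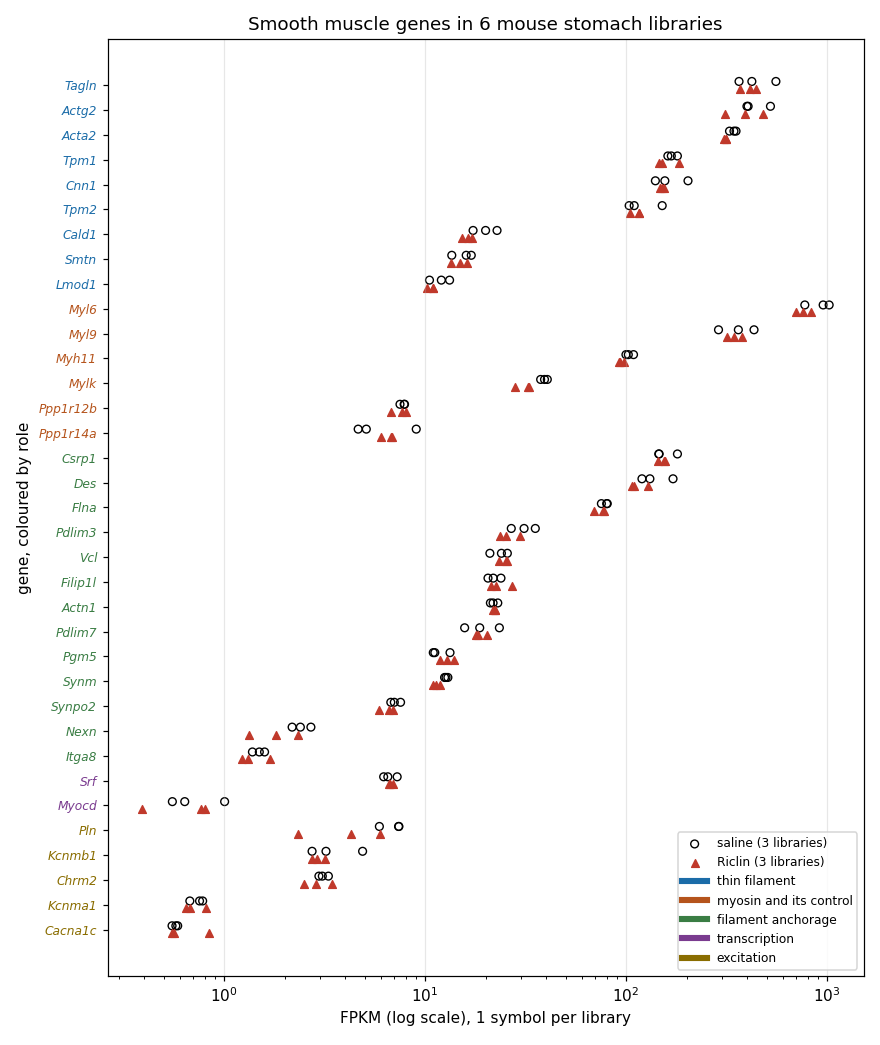
FPKM of the 35 smooth muscle genes on a log scale, with open circles for the 3 saline libraries and red triangles for the 3 Riclin libraries, and gene names coloured by role. Circles and triangles interleave for 30 genes, and all triangles lie left of all circles only for Acta2, Cald1, Myh11, Mylk and Synm.

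The spread of these genes over libraries was near that of all genes tested. Their median percent rank by mean FPKM was 88.9 among all genes of the table, and the genes tested were not matched to them in level. The highest library was less than 1.5-fold above the lowest in 25 of the 35 genes and less than 2-fold in 32, and 62.8% of all genes tested lay within 1.5-fold. The coefficient of variation over the 6 libraries ranged from 2.85% for alpha-actinin (Actn1) to 35.2% for phospholamban (Pln), with a median of 11.5% over the 32 genes against 12.9% over all genes tested. For 25 of the 32 genes the 95% interval of the change lay within 1.5-fold in either direction, as it did for 81.6% of all genes tested. Pln was the only one of the 32 whose interval reached beyond 2-fold, and the corresponding share of genes that stayed within 2-fold was 94.1% of all tested.

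The 9 thin filament genes had a summed level of 1736 ± 230 FPKM in saline, against 1579 ± 128 with Riclin (SD, n = 3 per group), the highest sum of the role groups. Smooth muscle alpha-actin, Acta2 (chr19:34241090-34255590, minus strand, GRCm38, protein-coding), measured 344, 352 and 327 FPKM in saline, then 308, 314 and 313 in Riclin. Every Riclin library lay below every saline library, by a narrow margin. The means were 341 ± 12.9 and 312 ± 3.22 FPKM (SD, n = 3 per group), a log2 fold change of -0.13 (SE 0.132, limma adjusted p = 0.909), with a 95% interval of -25.98% to 13.2% on the scale of FPKM + 1. The exact two-sided permutation p was 0.1, the smallest that 3 against 3 libraries can give. Such a lack of overlap with Riclin lower was found in 5 of the 32 genes, against 3.02% of all genes tested, and with Riclin higher in 0, against 8.14%.

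Actg2 encodes gamma-actin of the gut muscle, a close relative of Acta2 with a nearly identical protein, so reads from shared stretches may be split between the pair. It measured 405, 523 and 399 FPKM in saline and 309, 391 and 481 in Riclin. The groups overlapped, with the lowest and the second highest value both in Riclin. Its log2 fold change was -0.18 (SE 0.211, limma adjusted p = 0.921). It was -0.053 without saline replicate 2, -0.017 without Riclin replicate 2 and -0.34 without Riclin replicate 4. Acta2 divided by Actg2 gave 0.850, 0.674 and 0.819 in saline and 0.997, 0.804 and 0.651 in Riclin (exact two-sided permutation p = 1). The ratio had both its highest and its lowest value in Riclin.

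Tagln (transgelin, an actin-bundling protein and common muscle marker, chr9:45929619-45936058, minus strand) had the highest mean FPKM of the thin filament genes, at 422, 556 and 365 FPKM in saline and 369, 443 and 415 in Riclin. Cnn1 (calponin, which binds actin and slows myosin) measured 156, 203 and 140 FPKM in saline and 148, 151 and 154 in Riclin. In both, saline replicate 2 stood above the other 5 libraries, and without it their log2 fold changes of -0.11 and -0.12 were 0.055 and 0.031. Tpm2, a tropomyosin that lies along the actin filament, also had its highest value in saline replicate 2 (151 FPKM) and its lowest in saline replicate 4. Tpm1, the other tropomyosin, did not: its highest value, 183 FPKM, was in Riclin replicate 3.

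Cald1 (caldesmon, an actin-binding brake on myosin) measured 22.8, 17.3 and 20.0 FPKM in saline and 16.3, 17.2 and 15.2 in Riclin. The groups did not overlap, though saline replicate 2 and Riclin replicate 3 differed by less than 1%. Its log2 fold change was -0.28 (SE 0.122, limma unadjusted p = 0.0522, adjusted p = 0.820). Lmod1 (leiomodin, which nucleates actin filaments) ranged from 10.2 to 13.2 FPKM, and Smtn (smoothelin, a marker of contractile muscle) measured 17.0, 16.0 and 13.6 FPKM in saline and 16.1, 15.0 and 13.4 in Riclin. For all 9 thin filament genes the log2 fold change was below 0, as for 38.7% of all genes tested, from -0.28 to -0.060, with a median of -0.12. Without saline replicate 2 that median was -0.053 and Tpm2, Tagln and Cnn1 were above 0, and without saline replicate 4 it was -0.22.

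Among the myosin genes, Myh11 (chr16:14194535-14291372, minus strand), the heavy chain that defines smooth muscle, measured 103, 109 and 99.8 FPKM in saline and 98.1, 92.7 and 93.1 in Riclin. The groups did not overlap, and the gap between the lowest saline and the highest Riclin library was under 2 FPKM. The log2 fold change was -0.13 (SE 0.109, limma adjusted p = 0.884), with a 95% interval of -23.4% to 8.89%. Divided by Myh11, Acta2 stood at 3.14 to 3.39 in all 6 libraries, a nearly constant proportion. Actg2 divided by Myh11 ranged from 3.15 in Riclin replicate 2 to 5.17 in Riclin replicate 4.

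Mylk, the kinase that starts contraction (chr16:34745210-35002420, plus strand), had the smallest unadjusted p of the 35 genes. It measured 39.3, 37.6 and 40.5 FPKM in saline and 33.0, 32.6 and 28.1 in Riclin, with no overlap between the groups. The means were 39.1 ± 1.49 and 31.3 ± 2.72 FPKM (SD, n = 3 per group), 1.25-fold lower in Riclin. The log2 fold change was -0.32 (SE 0.108, 95% interval -0.57 to -0.068), with a limma unadjusted p of 0.0191 and an adjusted p of 0.778. Leaving out each library in turn gave log2 fold changes between -0.36 and -0.25. Its ratio to Myh11 was 0.383, 0.345 and 0.406 in saline and 0.337, 0.352 and 0.302 in Riclin, and there the groups overlapped (exact two-sided permutation p = 0.2).

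The light chains are small and abundant. Myl9, the regulatory chain that Mylk phosphorylates, measured 362, 433 and 288 FPKM in saline and 316, 376 and 344 in Riclin, a log2 fold change of -0.047 (SE 0.187, limma adjusted p = 0.980). Myl6, the essential chain, which non-muscle cells also make, measured 956, 1024 and 775 FPKM in saline and 698, 833 and 759 in Riclin. Both were highest in saline replicate 2, and both overlapped between the groups. Of the phosphatase genes, the targeting subunit Ppp1r12b ranged from 6.74 to 8.05 FPKM, and the inhibitor Ppp1r14a (CPI-17) from 4.64 FPKM in saline replicate 1 to 9.03 in saline replicate 2, so that its extremes both lay within the saline group.

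The anchoring genes hold the filaments to each other and to the membrane. Des, the muscle intermediate filament, measured 131, 171 and 120 FPKM in saline and 110, 129 and 108 in Riclin, with overlap and a log2 fold change of -0.27 (SE 0.166, limma adjusted p = 0.845), or -0.12 without saline replicate 2. Synm (synemin), its filament partner, measured 12.7, 12.98 and 12.5 FPKM in saline and 11.3, 11.9 and 10.96 in Riclin, without overlap and with a log2 fold change of -0.15 (SE 0.0882, limma adjusted p = 0.843). These are the intermediate filament genes of the group. Synpo2 (synaptopodin 2, a dense-body protein) measured 7.03, 7.55 and 6.75 FPKM in saline and 6.65, 6.92 and 5.90 in Riclin, with overlap.

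Other anchoring genes had estimates near 0: the actin cross-linkers Flna and Actn1, the membrane linker Vcl and the LIM protein Pdlim7 had log2 fold changes of -0.077, 0.012, 0.068 and -0.017. Actn1 was the steadiest gene of all 35, at 23.0, 21.1 and 21.8 FPKM in saline and 22.2, 21.9 and 22.4 in Riclin. The highest log2 fold change of the 32 genes was that of Pgm5 (a muscle adhesion protein related to phosphoglucomutase), 0.12 (SE 0.112, limma adjusted p = 0.900), at 10.98, 13.3 and 11.2 FPKM in saline and 13.9, 12.8 and 11.9 in Riclin. Ppp1r14a, Filip1l and Vcl, at 0.11, 0.089 and 0.068, followed it. None of these had groups that did not overlap.

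Nexn (nexilin, an actin-binding protein of adhesion sites) measured 2.40, 2.18 and 2.70 FPKM in saline and 1.81, 2.33 and 1.33 in Riclin, a log2 fold change of -0.29 (SE 0.147, limma unadjusted p = 0.0857, adjusted p = 0.828). Its lowest value came from 194 reads, in Riclin replicate 4. Pdlim3, Itga8 and Csrp1 (an actin-linked LIM protein) had log2 fold changes of -0.23, -0.054 and -0.047. In the whole anchoring group 9 of 13 genes lay below 0, against 38.7% of all genes tested, with a median of -0.054.

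**Figure D2:**
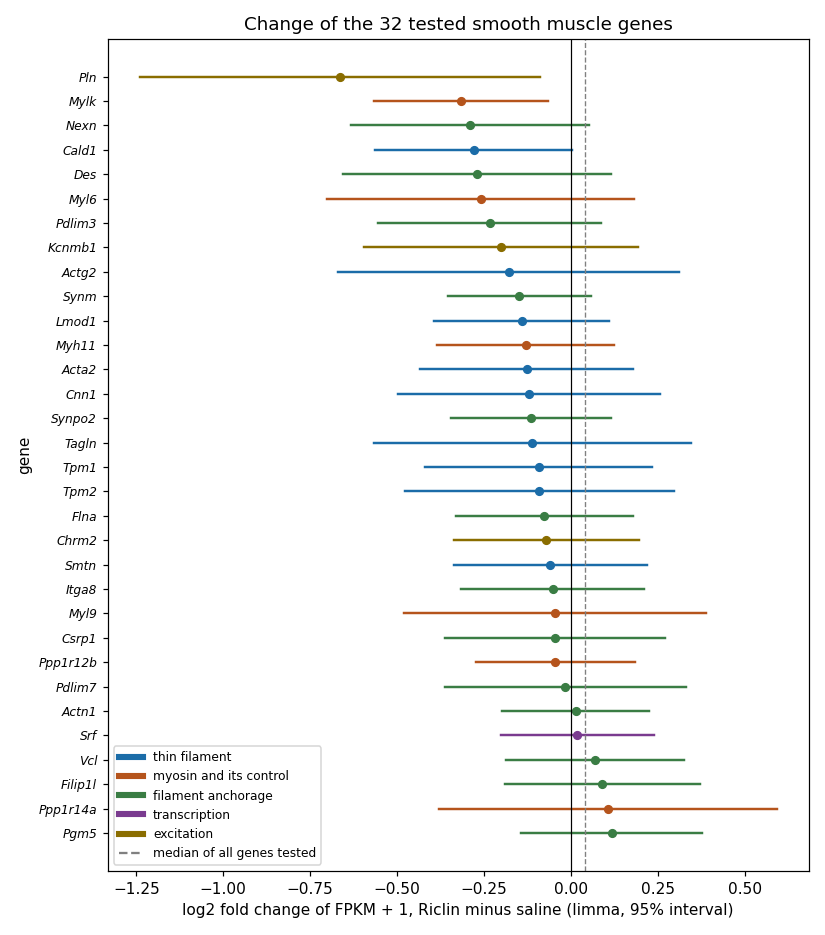
Log2 fold change of FPKM + 1, Riclin minus saline, for the 32 tested genes, with points for the limma estimate, bars for its 95% interval and colours for the role of the gene. The dashed line marks the median of all genes tested (0.04). Only the bars of Pln and Mylk leave out 0, and 26 of 32 points lie left of it.

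The transcription factors of the muscle program were at low levels. Srf measured 7.26, 6.22 and 6.52 FPKM in saline and 6.67, 6.96 and 6.62 in Riclin, a log2 fold change of 0.017 (SE 0.0946, limma adjusted p = 0.986), with a 95% interval of -13.1% to 17.9%. Myocd, the muscle-restricted partner, measured 1.01, 0.553 and 0.637 FPKM in saline and 0.802, 0.767 and 0.391 in Riclin, from 124 to 326 reads per library. Its highest value was in saline and its lowest in Riclin, and the groups overlapped. The 5 genes with a CArG box in the window had log2 fold changes from -0.26 to 0.089 (median 0.017), and the 23 tested genes with an entry and no box had a median of -0.093.

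Among the genes of excitation, Pln showed the lowest log2 fold change of the 32. Pln (chr10:53337667-53345987, plus strand) encodes phospholamban, which restrains the calcium pump of the sarcoplasmic reticulum. It measured 7.41, 5.92 and 7.38 FPKM in saline and 4.29, 5.94 and 2.33 in Riclin. The groups overlapped only by saline replicate 2 and Riclin replicate 3, which were nearly equal. The means were 6.90 ± 0.849 and 4.19 ± 1.81 FPKM (SD, n = 3 per group), 1.65-fold lower in Riclin, and the log2 fold change was -0.66 (SE 0.248, 95% interval -1.24 to -0.090, limma unadjusted p = 0.0288, adjusted p = 0.791). Without Riclin replicate 4, whose value rests on 220 reads, it was -0.38.

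In that library some other marker lists were low as well. The antral list (Gast, Pdx1 and Nkx6-3) summed to 7.76 FPKM there, against 698 to 1068 in saline and 410 and 433 in the other Riclin libraries. The adipocyte list (8 genes, led by Fabp4) summed to 152, against 252 to 421 in the other 5. The lists of fibroblasts (1007 FPKM) and interstitial cells of Cajal (31.8 FPKM) had their highest sums in that library. The part of these tissues in the level of Pln was not tested. Exons of Pln overlap exons of Cep85l (0.314 to 0.500 FPKM) on the opposite strand, as those of Vcl overlap Ap3m1 (11.1 to 13.3 FPKM) and those of Tagln overlap Pcsk7 (7.61 to 8.95 FPKM). Without strand information reads of such pairs cannot be told apart there. Over all 35 genes, Riclin replicate 4 was the lowest library in 16 and the highest in none.

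The ion channels were few in reads. The calcium channel Cacna1c, the main route of calcium entry, measured 0.575, 0.587 and 0.551 FPKM in saline and 0.839, 0.563 and 0.550 in Riclin, from 270 to 496 reads. Riclin replicate 2 stood above the other 5 libraries. Kcnmb1 and Kcnma1 encode the subunits of the potassium channel that relaxes muscle. Kcnmb1 measured 3.21, 4.89 and 2.74 FPKM in saline and 3.19, 2.91 and 2.73 in Riclin, and Kcnma1 stayed at 0.643 to 0.814 FPKM. Chrm2, a muscarinic acetylcholine receptor of gut muscle, measured 3.08, 3.30 and 2.96 FPKM in saline and 3.43, 2.85 and 2.51 in Riclin, with a log2 fold change of -0.072 (SE 0.115, limma adjusted p = 0.939).

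In 3 of the 6 libraries the levels of the muscle genes ran with gene length. FPKM values imply a length for each gene (the reads divided by the FPKM and the library total). The 9 genes that stood highest above their own mean in saline replicate 2 were, in order, Kcnmb1, Ppp1r14a, Des, Tagln, Tpm2, Cnn1, Actg2, Myl9 and Myl6, with implied lengths from 0.9 kb (Myl6) to 4.3 kb (Kcnmb1). Mylk, Cald1, Synpo2, Ppp1r12b, Cacna1c and Kcnma1, at 8.5 to 17.8 kb, were not among them. Over the 35 genes, Spearman's correlation between length and the deviation of saline replicate 2 from the other libraries was -0.58. In Riclin replicate 2 the relation ran the other way, with a correlation of 0.66, and in saline replicate 4 it was 0.53. Saline replicate 1, Riclin replicate 3 and Riclin replicate 4 gave -0.0073, -0.34 and -0.17. The same relation over all 11738 genes tested was -0.39 in saline replicate 2, 0.33 in Riclin replicate 2 and 0.15 in saline replicate 4, in the same direction as in the muscle genes. In saline replicate 1, Riclin replicate 3 and Riclin replicate 4 it was -0.070, -0.099 and 0.00073, the last with the opposite sign to that of the muscle genes. These are correlations across genes that share a library, given as a description. The part of gene length in the values of single genes was not tested.

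**Figure D3:**
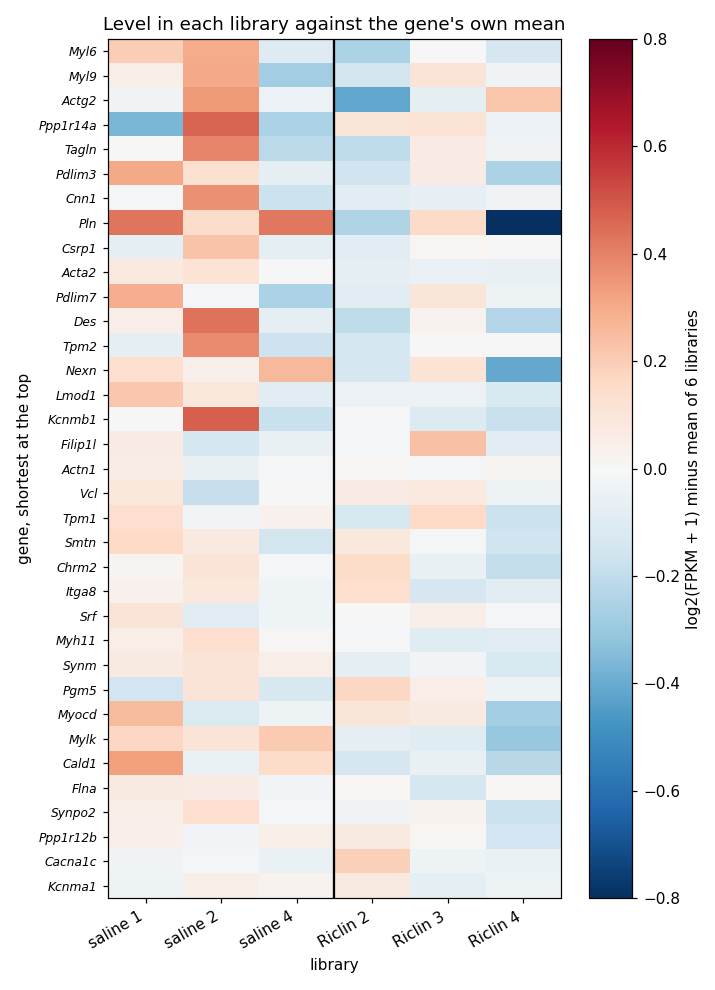
Level of each of the 35 genes in each library against the gene's own mean over the 6 libraries, as log2(FPKM + 1), with the shortest gene at the top and a line between the saline and Riclin libraries. Red in saline replicate 2 gathers among the short genes, and the deepest blue is that of Pln in Riclin replicate 4.

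**Figure D4:**
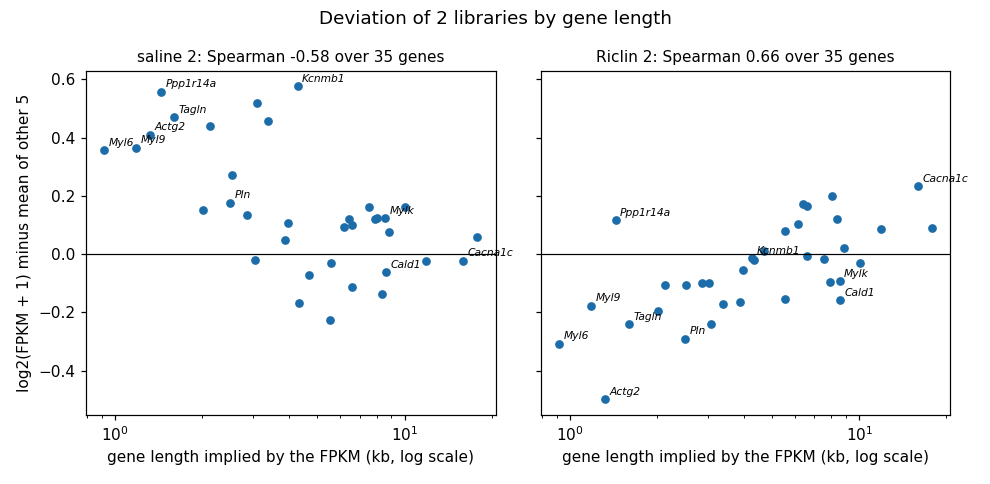
Deviation of saline replicate 2 (left) and Riclin replicate 2 (right) from the mean of the other 5 libraries, in log2(FPKM + 1), for the 35 genes against the length implied by the FPKM on a log scale. Points run downward on the left (Spearman's correlation -0.58) and upward on the right (0.66).

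Genes related to contraction that are not among the 35 were read from 3 lists. The first holds 42 genes of contraction signalling, of which 26 were tested. Of these 14 lay below 0, against 38.7% of all genes tested, and 12 above, with a median log2 fold change of -0.020. By limma 0 passed the adjusted threshold. At an unadjusted p under 0.05, 1 of 26 was lower, against 1.83% of all genes tested. That gene was Gucy1b1, a subunit of the nitric oxide receptor that relaxes muscle, at 6.01, 5.23 and 4.29 FPKM in saline and 4.15, 4.02 and 3.99 in Riclin (log2 fold change -0.28, limma adjusted p = 0.820). The cyclic GMP breakdown enzyme Pde5a had a log2 fold change of -0.21 and the muscarinic receptor Chrm3 0.16.

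The second list holds 46 further genes of muscle cytoskeleton and adhesion. Of 41 tested, 17 lay below 0, against 38.7% of all genes tested, and 24 above, with a median of 0.025. By limma 0 passed the adjusted threshold and 2 were higher at an unadjusted p under 0.05, a share near the 4.07% of all genes tested. These were Dtna (dystrobrevin, of the dystrophin complex), at 2.49, 2.69 and 2.61 FPKM in saline and 3.36, 3.29 and 3.23 in Riclin, and Tln2 (talin 2, which couples integrins to actin), at 2.22, 2.30 and 2.24 against 3.00, 2.60 and 3.40. Both had groups that did not overlap, as had 8.14% of all genes tested with Riclin higher, and log2 fold changes of 0.26 and 0.29 (limma adjusted p = 0.791 for each). Sorbs3 and the sarcoglycan Sgcb had log2 fold changes of 0.37 and 0.25.

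The third list holds 23 transcription factors of smooth muscle and stomach mesenchyme, of which 17 were tested. Of these 6 lay below 0, against 38.7% of all genes tested, and 11 above, with a median of 0.10. By limma 0 passed the adjusted threshold and 2 of 17 were higher at an unadjusted p under 0.05, against 4.07% of all genes tested. Nr2f2 (COUP-TFII, a nuclear receptor of mesenchyme, veins and lymphatics) measured 8.21, 7.93 and 6.86 FPKM in saline and 9.61, 11.7 and 10.5 in Riclin, with no overlap (log2 fold change 0.42, SE 0.112, limma adjusted p = 0.699). Gata6, which gut epithelium also makes, measured 23.9, 18.8 and 19.6 FPKM in saline and 25.9, 26.7 and 25.7 in Riclin (log2 fold change 0.32, limma adjusted p = 0.791). Nr2f1 and Meis2 had log2 fold changes of 0.25 and -0.21.

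Cells that lie among the muscle were followed by their own markers. The 7 genes of interstitial cells of Cajal, the pacemakers of the gut, summed to 29.0 to 29.9 FPKM in saline and 28.7 to 31.8 in Riclin. Within that list Kit, which mast cells also express, measured 11.04, 9.04 and 8.78 FPKM in saline against 11.4, 12.4 and 13.4 in Riclin, and Thbs4 stood at 1.502, 2.38 and 2.21 against 0.855, 1.61 and 0.386 FPKM, and neither passed the adjusted threshold by limma. The 16 enteric neuron genes summed to 42.4 to 49.5 and 43.96 to 48.9 FPKM, and the 7 pericyte genes to 80.9 to 93.2 and 73.2 to 83.7 FPKM. The 11 fibroblast genes summed to 705 to 932 FPKM in saline and 895 to 1007 in Riclin. For comparison, the 35 contractile genes summed to 3724 ± 474 FPKM in the saline libraries, against 3338 ± 221 in the Riclin libraries (SD, n = 3 per group). Myl6, which non-muscle cells also make, led that sum, at means of 918 FPKM in saline and 763 in Riclin.

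Markers of epithelium and fat were read in the same way. The parietal cell genes summed to 3595 to 5261 FPKM in saline and 4702 to 6295 in Riclin, and the squamous forestomach genes to 153 to 856 and 655 to 925. Of all genes tested, 38.7% had a log2 fold change below 0, and the median was 0.04. Of the 12 parietal genes tested 10 had one above 0 (median 0.34). So had all 5 chief cell genes tested (median 0.59) and all 10 squamous genes tested (median 0.99). At an unadjusted p under 0.05, 5 parietal, 2 chief cell and 5 squamous genes were higher, against 4.07% of all genes tested. All 8 surface mucous genes tested (median -0.19) and all 3 antral genes tested (median -1.24) had a log2 fold change below 0. At that unadjusted p, 1 parietal, 1 surface mucous and 2 antral genes were lower, against 1.83% of all genes tested. By limma 0 genes of these lists passed the adjusted threshold. The adipocyte genes had a median of -0.57, with 6 of 7 below 0, and the muscle genes one of -0.10. Saline replicate 1, lowest in the squamous list, was within the range of the other libraries in the sum of the contractile genes (3688 FPKM, against 3093 to 4216). Riclin replicate 3, which lacked nearly all acinar RNA, was within that range as well, at 3524 FPKM. These sums are scaled to library size with acinar RNA included. The fit without acinar genes multiplied values by 1.072, 1.352 and 1.333 in saline and by 1.222, 1.001 and 1.209 in Riclin. Riclin replicate 3 had the smallest of these factors, so its place in the range holds only for the unscaled sums. The part of these tissues in the muscle values was not tested.

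**Figure D5:**
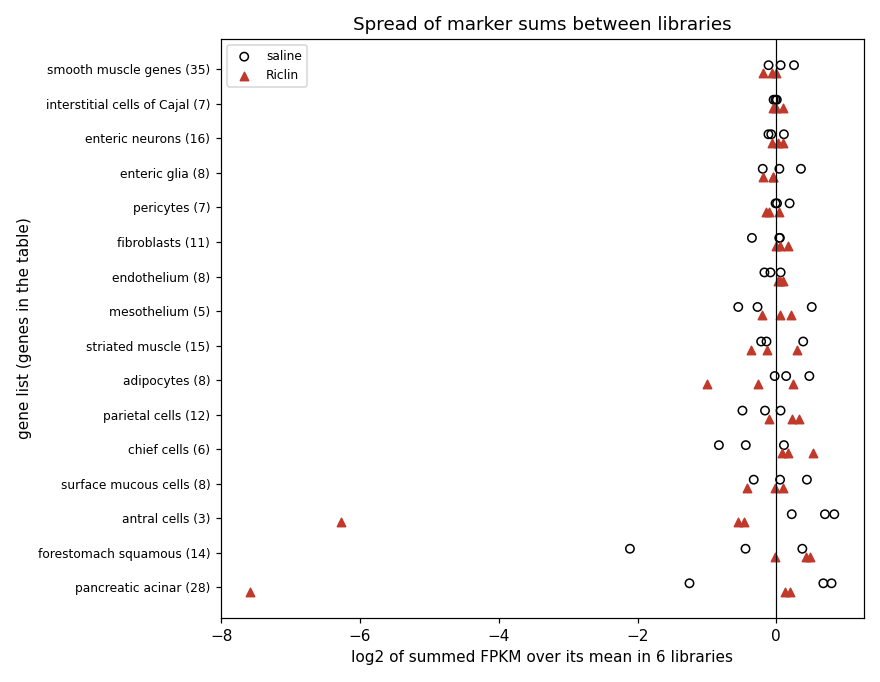
Log2 of the summed FPKM of each marker list over its mean in the 6 libraries, with open circles for saline and red triangles for Riclin. The smooth muscle, pacemaker and neuron lists stay close to 0, while the antral list in Riclin replicate 4 and the pancreatic acinar list in Riclin replicate 3 lie far to the left.

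Among the 1399 other genes tested whose log2 values had an SD of at least 0.3 over the libraries, the 8 with the profile most like the mean of the 32 muscle genes were Snhg18, Lipa, Miip, Mettl1, Npb, Siva1, Cmbl and Ly6g6c, with Pearson's r over the 6 libraries from 0.904 to 0.968. None of them is in a muscle or marker list used here. The SD limit of 0.3 shut out steadier genes beforehand, so this does not show how other muscle genes ran. Snhg18, a small nucleolar RNA host gene, came closest, at 11.6, 13.4 and 9.67 FPKM in saline and 8.25, 11.2 and 7.08 in Riclin. With only 6 libraries and so many candidates, such likeness is a description of these libraries.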

How the data were processed

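RNA from mouse stomach was sequenced in 6 libraries, 3 saline and 3 Riclin. The authors deposited 1 table of FPKM values per gene symbol. The submitters' processing notes name Bowtie2 and mm10 without saying what each was used for; counter, annotation and strandedness: not given in the sources used here. Groups come from the treatment labels and replicate numbers from the titles.

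Whole reads were recovered from exact ratios between libraries for 23546 of 23550 genes, within a relative tolerance of 1e-09, for depth and 1 added fit. The recovery was tested on simulated data, and all 35 members had at least 20 reads in every library. Implied lengths of the 35 members had a median of 0.905 times the GENCODE M21 exon length, from 0.288 (Myl6) to 2.28 times (Srf).

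Genes with at least 1 FPKM in at least 3 libraries were compared on log2(FPKM + 1) with limma 3.58.1 (R 4.3.3), with an intensity trend, no covariate, two-sided tests and Benjamini-Hochberg adjustment over 11738 genes. The added pseudocount understates changes of low genes. The fit was tested on simulated data. Exact permutation tests used scipy 1.17.1, and figures matplotlib 3.10.9. Positions are from GENCODE M21 (GRCm38), promoters from RefSeq. Exons of 14 members overlap another annotated gene.

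Members and lists were chosen with earlier results of these data known. Every member may be named; outside them, the 4 genes with the smallest p of each of 3 related lists (1 of these is not reported here), the 8 closest profiles, and marker lists with single genes chosen after their values were seen. Replicate pairs of one group differed by far more than sampling noise. Alternatives tried were another pseudocount, 2 other filters, 3 scalings, a robust prior, the replicate block, each library left out, and, after the data were seen, voom on recovered reads and a fit without saline replicate 1 and Riclin replicate 3.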

Additional observations from a re-analysis of the deposited data

How the results depend on the processing

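Over 16 alternatives, 0 of the muscle genes passed the adjusted threshold by limma, and the smallest adjusted p of any was 0.377. Of the 32, 16 kept a log2 fold change below 0 in every alternative, among them Acta2, Actg2 (-0.34 to -0.017), Myh11, Mylk, Cald1, Des, Synm and Pln. Over all genes, 3 passed with pancreatic acinar genes removed and 2 with a robust prior, and 0 to 1 when 1 library was left out. The count of muscle genes at an unadjusted p under 0.05, 2 in the main comparison, was 6 under either size-factor scaling (median of ratios, upper quartile; 4.15 and 3.80% of all genes were lower at that p) and 7 with pancreatic genes removed (6.58%). It was 0 to 4 when 1 library was left out. Without saline replicate 4 or Riclin replicate 4 it was 0 (1.65 and 1.54% of all genes were lower). Without saline replicate 1 it was 1, lower in Riclin (1.37%). Without saline replicate 2 it was 4 muscle genes, 3 lower (2.80%) and 1 higher (3.65%). Their median was -0.23 with pancreatic genes removed, where all 32 lay below 0, but that scaling moved the median of all genes from 0.040 to -0.069. Relative to all genes the median of the muscle genes was -0.14 in the main comparison, -0.16 with pancreatic genes removed and -0.057 without saline replicate 2. The median was -0.16 to -0.046 when 1 library was left out. The cause of these differences was not tested.

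Log2 fold changes of 16 muscle genes changed sign in at least 1 alternative. Under the 2 size-factor scalings these were Actn1 (-0.033 and -0.022) and Srf (-0.024 and -0.013). With pancreatic genes removed they were Ppp1r14a (-0.0083), Vcl (-0.055), Actn1 (-0.11), Pgm5 (-0.0032), Filip1l (-0.034) and Srf (-0.096). With the replicate block, and equally without saline replicate 1 and Riclin replicate 3, they were Ppp1r14a (-0.080), Itga8 (0.0032) and Pdlim7 (0.072). In the latter fit Actn1 was 0.053 and Csrp1 -0.12. When 1 library was left out, the ranges that crossed 0 were those of Tpm2 (-0.20 to 0.076), Tagln (-0.25 to 0.055), Cnn1 (-0.24 to 0.031), Myl9 (-0.20 to 0.093), Csrp1 (-0.099 to 0.055), Smtn (-0.15 to 0.0056), Ppp1r12b (-0.093 to 0.020), Ppp1r14a (-0.052 to 0.36), Vcl (-0.0081 to 0.13), Actn1 (-0.014 to 0.044), Itga8 (-0.14 to 0.00080), Pdlim7 (-0.15 to 0.13), Filip1l (-0.0068 to 0.15), Srf (-0.025 to 0.072) and Chrm2 (-0.16 to 0.0070).

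Only numbers 2 and 4 occur in both groups, and nothing in the labels pairs them. The correlation of deviations was 0.22 for number 2 and 0.011 for number 4. With the replicate block 0 genes passed the adjusted threshold and the median of the muscle genes was -0.13. At an unadjusted p under 0.05, 1 muscle gene was lower there, against 2.73% of all genes tested. Depth limits Myocd, Nexn and Pln most, with 124 to 220 reads in their lowest library.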
